A study of Mus musculus with 12 samples.

Results

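Listed eosinophil genes were followed through whole bone marrow of irradiated and unirradiated mice, with and without the carotenoid deinoxanthin (DEIX). The list named 10 genes, and all 10 were found by symbol among the 21853 genes of the deposited FPKM table (fragment counts scaled for transcript length and library size). They were the granule protein genes Prg2, Prg3 and Epx, the ribonuclease genes Ear1, Ear2 and Ear6, the surface lectin Siglecf, the receptors Il5ra and Ccr3, and the lipid enzyme Alox15. Tests were limited to genes reaching 1 FPKM in 3 or more of the 12 libraries, which 9 of the 10 did and Il5ra did not. The control mice were unirradiated B6 mice for which no gavage is stated. The TBI mice received 5 Gy of total body irradiation with gamma rays at 0.66 Gy/min and 100 µL of olive oil by gavage. The TBI+DEIX mice received the same irradiation and oral DEIX, 25 mg/kg daily over 14 days, and the DEIX mice received DEIX without irradiation. What control and DEIX mice were gavaged with, if anything, is not stated. In TBI against control, irradiation therefore cannot be told apart from the oil gavage. In DEIX against control, DEIX cannot be told apart from any gavage or vehicle, and the interaction carries both limits. Marrow was taken 14 days after irradiation, and each group had 3 libraries. Nothing in the labels says how the libraries of a group relate to single animals, so p-values measure the spread between libraries, which may be technical in part. Age and sex are not given in the sources used here.

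Eosinophils are granulocytes that mature in the marrow from committed progenitors under interleukin 5, GATA1 and members of the C/EBP family. Their granules are packed with basic proteins, a peroxidase and ribonucleases, whose messages are made mostly by progenitors and fade as the cells mature. Mature eosinophils leave the marrow toward eotaxins, which CCR3 senses, and in mice they carry Siglec-F. Several of these genes are also used by other cells. Major basic protein is also found in basophils, Ear2 is also a gene of monocytes and macrophages, Il5ra is also used by some B lineage cells, and Alox15 by some macrophages.

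The ribonucleases are shown first because their likeness limits their values. Ear1, Ear2 and Ear6 lie on chromosome 14 and share most of their coding sequence. The 90 coding bases that start at base 61 of each coding sequence (GRCm38, GENCODE vM21 transcripts) read as follows, with bases that differ from Ear2 in capitals.
Ear2 (chr14:44102947-44103036, plus strand): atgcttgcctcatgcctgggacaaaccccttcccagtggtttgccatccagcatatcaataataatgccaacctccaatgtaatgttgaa
Ear1 (chr14:43819260-43819349, minus strand): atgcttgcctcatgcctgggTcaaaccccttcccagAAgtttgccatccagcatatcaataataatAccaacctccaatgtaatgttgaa
Ear6 (chr14:51854058-51854147, plus strand): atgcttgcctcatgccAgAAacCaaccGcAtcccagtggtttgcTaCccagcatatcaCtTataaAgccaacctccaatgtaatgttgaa
In this stretch Ear1 differed from Ear2 at 4 bases and Ear6 at 11. Over the whole coding sequence Ear1 and Ear2 were 95.1% identical, with a longest shared run of 96 bases, and Ear6 was 87.4% identical to Ear1 and 87.7% to Ear2. How reads were shared between these genes is not known, so the low values of Ear1 and Ear6 beside the high value of Ear2 are uncertain. Prg2 and Prg3, which lie next to each other on chromosome 2 with 4582 bases between them, were 64.3% identical in coding sequence, with a longest shared run of 23 bases.

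Promoter sequence was available for 8 of the 10 genes, as the 250 bases before the transcription start in RefSeq on GRCm38.p6. Prg2 and Alox15 had no entry. GATA1 binds the core GATAA, which was searched on both strands (GATAA or TTATC). It was present in 3 of the 8 windows, those of Prg3, Il5ra and Ccr3, against 22.6% of all 32851 promoter windows of this length. A pair of granule genes with different patterns is printed, with the match in capitals.
Prg3 (chr2:84987965-84988214, plus strand): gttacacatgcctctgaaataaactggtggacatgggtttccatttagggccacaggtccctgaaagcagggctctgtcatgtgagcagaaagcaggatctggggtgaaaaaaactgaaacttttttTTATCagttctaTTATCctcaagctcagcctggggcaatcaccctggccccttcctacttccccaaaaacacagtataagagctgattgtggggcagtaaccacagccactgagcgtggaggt
Epx (chr11:87875537-87875786, minus strand): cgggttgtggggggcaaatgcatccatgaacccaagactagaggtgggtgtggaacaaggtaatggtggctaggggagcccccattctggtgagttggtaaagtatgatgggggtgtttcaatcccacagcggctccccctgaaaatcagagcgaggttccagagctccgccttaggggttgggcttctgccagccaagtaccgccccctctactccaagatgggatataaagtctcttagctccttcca
Prg3 held 2 matches, at -123 and -111 from the start, in the same orientation. Il5ra held 1 at -73 and Ccr3 held 1 at -29, and the Epx window held none. The C/EBP core TTGCNNAA was in the windows of Ear1 and Ear2 (9.56% of all windows) and GAGGAA, a core bound by PU.1, in those of Siglecf and Ccr3 (23.2% of all windows), each searched on both strands. No match overlapped another motif. A match describes letters only and says nothing of binding.

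Total reads are unknown. The FPKM worth of 1 read, read from the steps of low values, was 1.51 to 2.14 times that of control replicate 1 in TBI+DEIX and 0.879 to 1.65 times in the other 9 libraries. TBI+DEIX libraries were thus mostly shallower than the rest, with DEIX replicate 1 among them. By this scale the least covered values of the list, Ear1 in TBI+DEIX replicate 1 and Il5ra in TBI replicate 1, rest on about 9 reads each, while Prg2 rests on at least about 967 in every library. Prg3 rests on about 26 reads in its least covered library. TBI+DEIX replicate 1 stood apart, with a median correlation across genes of 0.933 to its own group against 0.955 or more for each other library. Summed FPKM is not comparable between libraries, because the abundant neutrophil genes S100a8, S100a9 and Ngp have a value of 0 in several of them.

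By level per length, Ear2 and Prg2 stood far above the rest. Mean FPKM over the 12 libraries was 99.3 for Ear2 and 54.1 for Prg2, then 4.73 for Siglecf, 4.07 for Epx, 3.15 for Ccr3, 2.17 for Alox15, 1.99 for Prg3, 1.72 for Ear1, 1.71 for Ear6 and 0.328 for Il5ra. Neighbours from Siglecf down to Ear6 lay within their own spread over libraries. The defining eosinophil genes Epx and Siglecf were above 0 in all 12 libraries, at low levels of 1.86 to 7.13 and 3.02 to 5.72 FPKM. In whole marrow, fewer eosinophil lineage cells and less RNA per cell cannot be told apart.

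**Figure D1:**
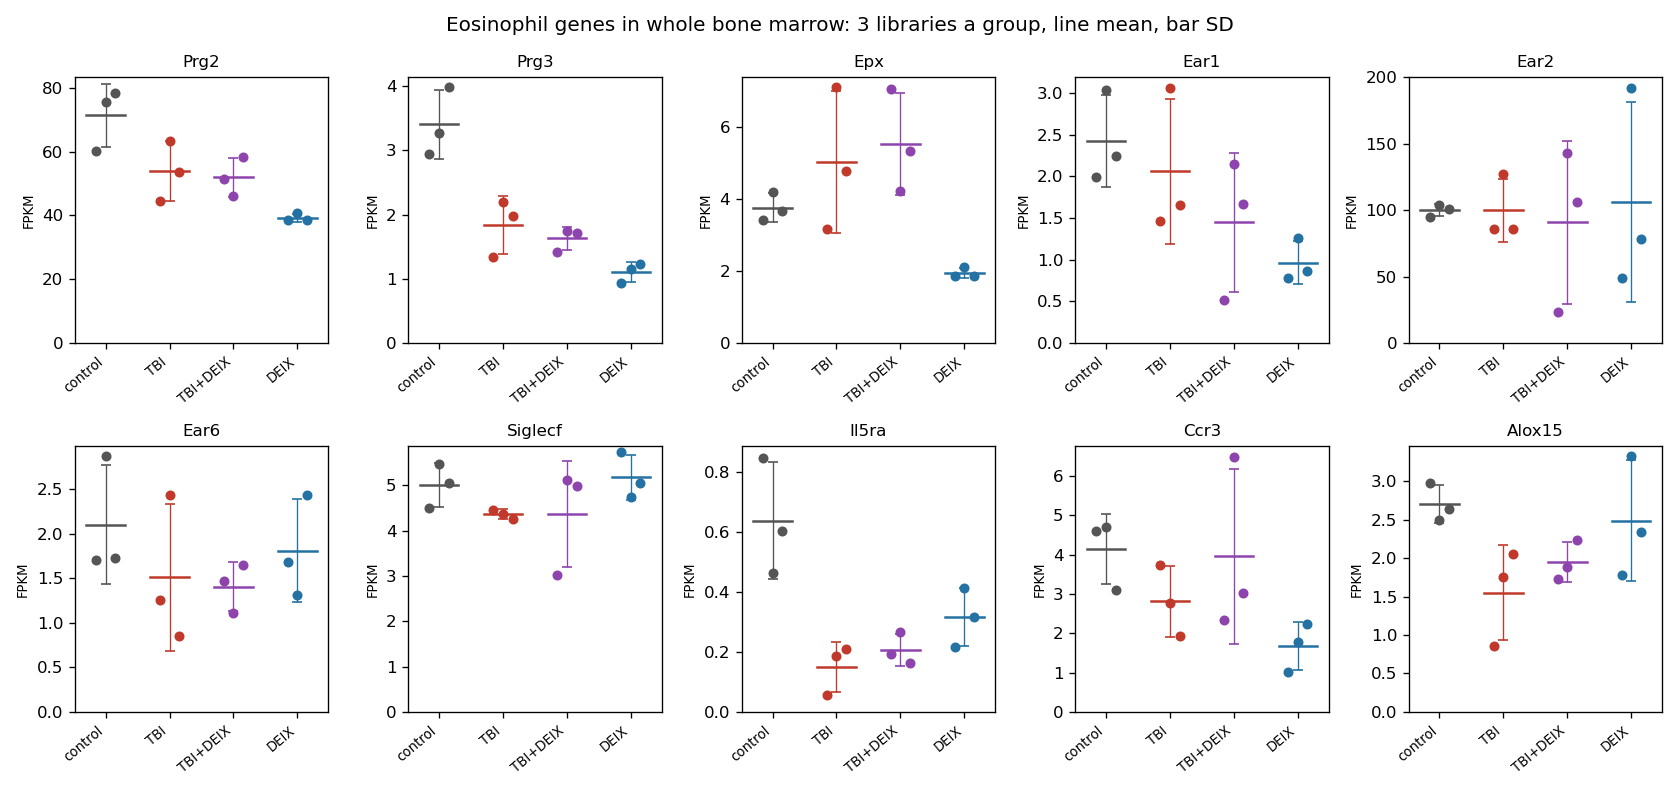
FPKM of the 10 eosinophil genes (vertical axes, each from 0) in the 4 groups (horizontal axes), with 1 point per library, a line at the mean and a bar of 1 SD. Prg2 and Prg3 are highest in control and lowest in DEIX, Epx is lowest in DEIX, and Ear2 spreads from 23.1 to 192 FPKM within TBI+DEIX and DEIX.

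Comparisons were fitted with limma across all 10994 tested genes, and "called" means a Benjamini-Hochberg adjusted p below 0.05. In TBI against control 1 of the 9 tested eosinophil genes was called, Prg3, against 3.99% of all tested genes. In DEIX against control 2 of 9 were called, Prg2 and Prg3, against 7.24%. In TBI+DEIX against control the same 2 genes were called, against 30%, a background so high that this count says little. In TBI+DEIX against TBI 0 of 9 were called by limma against 8.1% of all tested genes, and 0 had an unadjusted p under 0.05, against 27.2%. In TBI+DEIX against DEIX 1 of 9 was called, Epx, against 2.57%. For the interaction, the DEIX effect in irradiated minus that in unirradiated mice, 0 of 9 were called by limma, against 0.2% of all genes, and 4 (Prg2, Prg3, Epx and Ccr3) had an unadjusted p under 0.05, against 7.5%. The 3 comparisons with control share the control libraries, so their calls are not independent of each other.

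The signs of the changes leaned to lower values against control. In each comparison with control 8 of the 9 genes had a change below 0. Over all tested genes that share was 42.2% for TBI, 47.9% for TBI+DEIX and 47.7% for DEIX. The 3 libraries of the treated group lay below all 3 control libraries for 3 of the 9 genes in TBI (16.3% of all tested genes), 5 in DEIX (17.2%) and 4 in TBI+DEIX (21.1%). The TBI+DEIX libraries lay above all DEIX libraries for 4 (8.72%), and for 0 of the 9 did TBI+DEIX and TBI stand apart (27.2%). The median log2 change of FPKM + 1 over the 9 genes was -0.33 for TBI, -0.35 for TBI+DEIX and -0.69 for DEIX, beside medians of 0.05, 0.02 and 0.02 over all tested genes. Between TBI+DEIX and TBI it was -0.02, beside 0.00 over all tested genes (3 genes above 0 and 6 below).

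Prg2 and Prg3 were below control in mice given DEIX without irradiation, and Prg3 also in irradiated mice given oil. Prg2 (ENSMUSG00000027073.5, chromosome 2, 84980461 to 84983632, plus strand) encodes the major basic protein, a toxic cationic protein that forms the crystalline core of the granule. It was at 60.2, 75.4 and 78.5 FPKM in control replicates 1 to 3, at 44.6, 63.4 and 53.6 in TBI, at 51.4, 46.1 and 58.4 with TBI+DEIX, and at 38.6, 40.7 and 38.5 in DEIX. Every DEIX library lay below every library of the other groups, while TBI overlapped with control and with TBI+DEIX. Group means were 71.4 ± 9.79, 53.8 ± 9.42, 52.0 ± 6.20 and 39.3 ± 1.23 FPKM (SD, n = 3), so the DEIX mean was 55.0% of control.

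The log2 change of Prg2 was -0.84 in DEIX against control (SE 0.14, limma adjusted p 0.00927). It lost the call without control replicate 2 (adjusted p 0.0521) or control replicate 3 (0.0501), and its adjusted p ran from 0.000335 to 0.0521 over the alternatives. In TBI+DEIX against control the change was -0.45 (SE 0.14, adjusted p 0.037), lost with only these groups in the fit (0.079) and without control replicate 2, control replicate 3 or TBI+DEIX replicate 2 (adjusted p over the alternatives from 0.00305 to 0.128). In TBI against control the change was -0.41 and was not called (adjusted p 0.164), but array weights called it at -0.30 (adjusted p 0.0285, up to 0.459 over the alternatives). These weights follow the spread of each library and gave 82.3% of the control weight to control replicate 2 and 74.9% of the TBI weight to TBI replicate 2. Each call below that array weights alone add against control, for Epx, Ear6, Ccr3, Siglecf and Alox15, thus rests largely on 1 control library.

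Prg3 (ENSMUSG00000027072.13, chromosome 2, 84988215 to 84993886, plus strand) encodes a major basic protein homolog that is also stored in granules. Its control libraries were at 2.95, 3.27 and 3.99 FPKM, above every other library. TBI was at 1.34, 2.20 and 1.98, TBI+DEIX at 1.42, 1.75 and 1.72, and DEIX at 0.935, 1.15 and 1.22. The 3 DEIX libraries were the lowest of the 12. Means were 3.40 ± 0.531, 1.84 ± 0.448, 1.63 ± 0.180 and 1.10 ± 0.151 FPKM in the same order (SD, n = 3), so that TBI held 54.0%, TBI+DEIX 47.9% and DEIX 32.4% of the control mean.

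Prg3 changed by -1.06 in DEIX against control (SE 0.14, limma adjusted p 0.00395) and kept its call under each of the 12 alternatives run for that comparison (adjusted p from 6.2e-05 to 0.0269). It changed by -0.74 in TBI+DEIX against control (SE 0.14, adjusted p 0.00325), and by -0.64 in TBI against control (SE 0.14, adjusted p 0.0297). The TBI call is fragile. It was lost when summed FPKM was made equal without S100a8, S100a9 and Ngp (adjusted p 0.0547), without any 1 of the 3 control libraries, and without TBI replicate 1 or 3 (adjusted p over the alternatives from 0.000647 to 0.138). The smallest change, -0.48, came with array weights and the largest, -0.87, with a pseudocount of 0.1.

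Epx, unlike Prg2 and Prg3, had its highest values in irradiated mice, and was higher in TBI+DEIX than in DEIX. Epx (ENSMUSG00000052234.2, chromosome 11, 87864000 to 87875536, minus strand) encodes eosinophil peroxidase, which makes oxidants from hydrogen peroxide and halides. It was at 3.42, 4.21 and 3.66 FPKM in control, 3.19, 7.13 and 4.80 in TBI, 7.07, 4.24 and 5.33 with TBI+DEIX, and 1.86, 2.10 and 1.86 in DEIX. The DEIX libraries lay below all 9 others, the TBI libraries spread from below control to above it, and the TBI+DEIX libraries lay above control, the lowest of them barely. Means were 3.76 ± 0.406, 5.04 ± 1.99, 5.55 ± 1.42 and 1.94 ± 0.139 FPKM (SD, n = 3).

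Epx was 2.86-fold higher in TBI+DEIX than in DEIX by group means, a log2 change of 1.13 on the FPKM + 1 scale (SE 0.22, limma adjusted p 0.0249). This comparison was added after the data were seen. Its call was lost with only these groups in the fit (adjusted p 0.14), with summed FPKM made equal (0.0707), and without TBI+DEIX replicate 3 or any 1 of the DEIX libraries (adjusted p over the alternatives from 0.0198 to 0.14). In DEIX against control Epx was at 51.6% of the control mean, and the change of -0.69 was not called (SE 0.22, adjusted p 0.0792). Fitted on these groups alone, the same change had an adjusted p of 0.00391, and it was also called with array weights (from 0.0034 to 0.243 over the alternatives). In TBI against control and in TBI+DEIX against TBI the changes were 0.29 and 0.15, with adjusted p of 0.521 and 0.711. Array weights called the first of these higher, at 0.51 (adjusted p 0.00864, up to 0.928 over the alternatives).

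**Figure D2:**
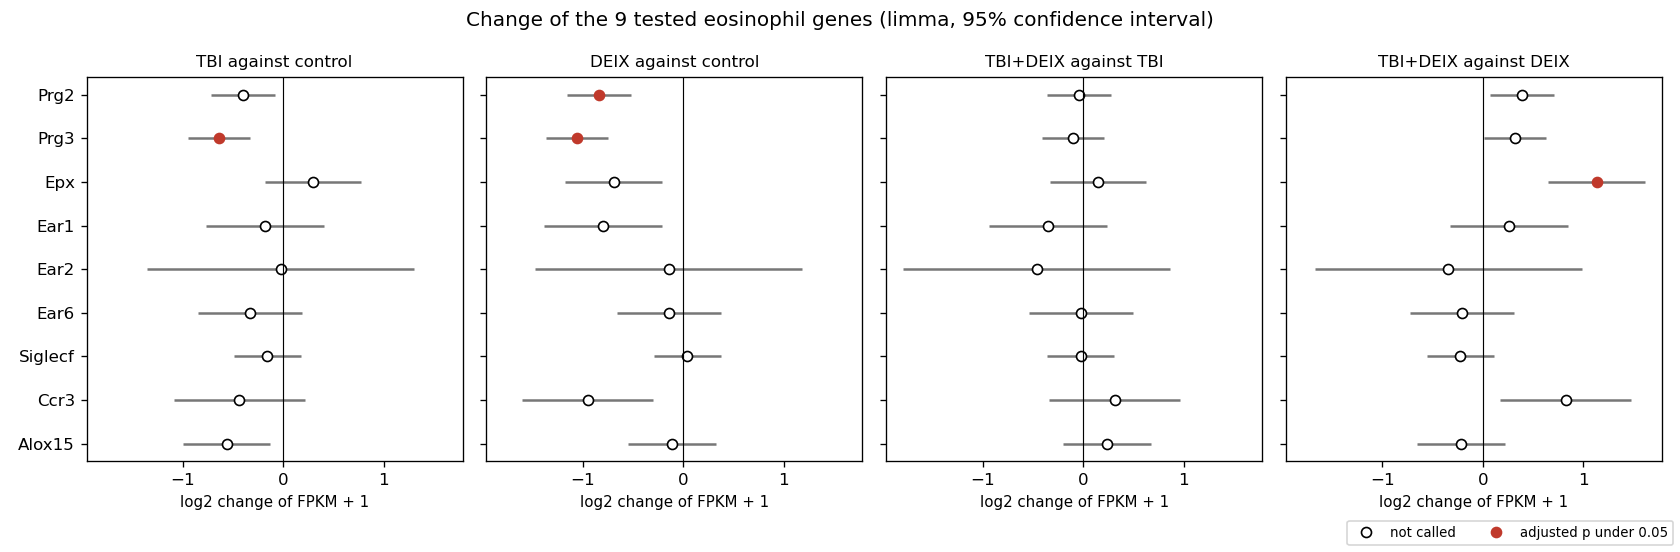
Log2 change of FPKM + 1 (horizontal axis) with its 95% confidence interval for the 9 tested genes (vertical axis) in 4 comparisons, from limma over 12 libraries. Filled points were called at an adjusted p under 0.05: Prg3 at -0.64 in TBI, Prg2 at -0.84 and Prg3 at -1.06 in DEIX, and Epx at 1.13 in TBI+DEIX against DEIX.

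Ratios between granule genes within a library do not depend on how that library was scaled. They were chosen after the values were seen and are given without a test. Epx as a percent of Prg2 was 5.67, 5.58 and 4.67 in control and 4.82, 5.16 and 4.83 in DEIX. It was 7.15, 11.2 and 8.95 in TBI and 13.8, 9.21 and 9.13 in TBI+DEIX. All 6 irradiated libraries lay above all 6 unirradiated ones, with DEIX and control overlapping. Prg3 as a percent of Prg2 was 4.90, 4.34 and 5.08 in control, and between 2.42 and 3.79 in the other 9 libraries, all below control. The granule genes thus did not keep constant proportions in these libraries.

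**Figure D3:**
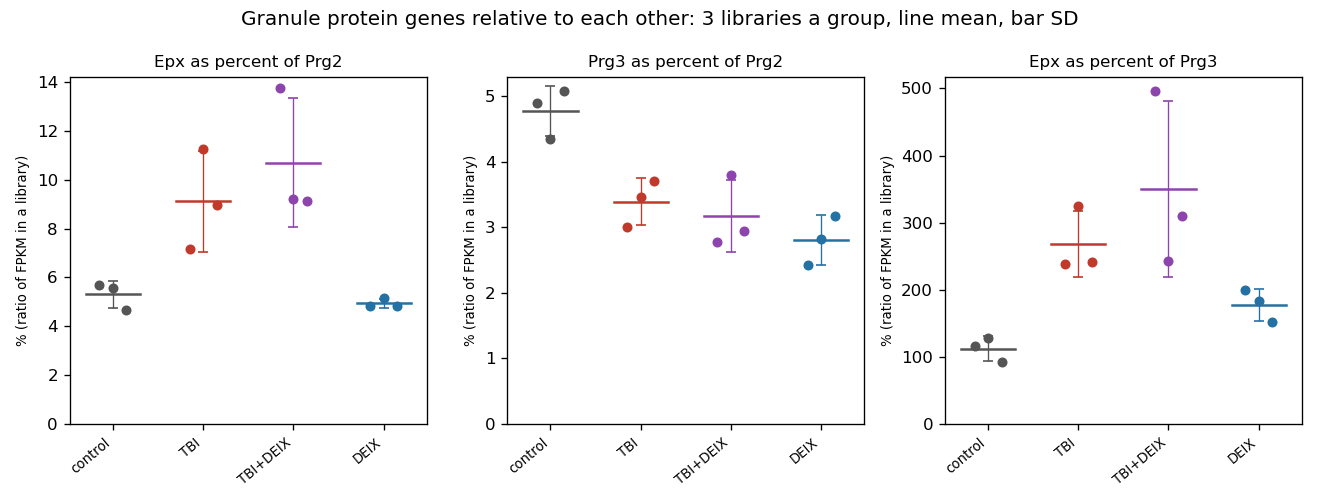
Ratios of FPKM between granule protein genes in the same library, in percent (vertical axes, from 0), by group (horizontal axes), with 1 point per library, a line at the mean and a bar of 1 SD. Epx to Prg2 has means of 5.31% in control, 9.12% in TBI, 10.7% with TBI+DEIX and 4.94% in DEIX.

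Basophil, mast cell and promyelocyte markers are given beside these values. The summed FPKM of 11 basophil and mast cell markers was 498 to 577 in control, 230 to 377 in TBI, 215 to 560 with TBI+DEIX and 477 to 534 in DEIX. Of its 9 tested genes 0 were called by limma in TBI or in DEIX against control, with 5 and 1 at an unadjusted p under 0.05 (18.1% and 24.7% of all tested genes), and Tpsb2 was listed at 0 in 9 libraries. In TBI 8 of the 9 lay wholly below control (16.3% of all tested genes), in DEIX 3 (17.2%) and in TBI+DEIX 5 (21.1%). In TBI+DEIX against control 2 were called lower, Prss34 and Kit (13.1%). The sum joins genes that differed in direction. Hdc, which makes histamine, averaged 97.9 FPKM in control, 192 in TBI+DEIX and 170 in DEIX, while the protease gene Prss34 averaged 226, 104 and 171 in the same groups. Among the basophil proteases, Mcpt8 was at 29.0 FPKM in TBI replicate 1 and 122 to 150 in control, and that library was also the lowest of the TBI group for Prg2 and Prg3. The summed FPKM of 5 promyelocyte markers was 2888 to 4081 in control, 1921 to 3726 in TBI, 1848 to 3228 with TBI+DEIX and 3168 to 5091 in DEIX. Mpo and Elane, with means of 1289 and 870 FPKM over the 12 libraries, made up most of this sum. Of the 5, Elane alone was called lower in TBI+DEIX against control (-0.94, limma adjusted p 0.0208, beside 13.1% of all tested genes). The part of basophils, mast cells and promyelocytes in the values of Prg2 and Prg3 was not tested.

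The ribonucleases, which degrade RNA and have antiviral and chemotactic activity, were not called in any of the 6 contrasts by the limma fit over all groups, without weights or a block. Other settings called Ear1 and Ear6, as given with each gene. Ear2 (ENSMUSG00000072596.4, chromosome 14, 44102654 to 44103534, plus strand) was at 95.1, 104 and 101 FPKM in control, 86.0, 127 and 86.2 in TBI, 23.1, 143 and 106 with TBI+DEIX, and 48.8, 192 and 78.3 in DEIX. Control was tight, while each DEIX-treated group held values both far below and far above it. Means differed little, from 90.8 ± 61.5 in TBI+DEIX to 106 ± 75.4 in DEIX (SD, n = 3), and the 95% confidence interval of the log2 change was -1.35 to 1.30 in TBI against control and -1.47 to 1.18 in DEIX against control. Changes of this size in either direction were therefore not resolved.

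Of 12 monocyte and macrophage markers, 7 were at their lowest in TBI+DEIX replicate 1, 6 at their highest in DEIX replicate 2, and 5 both (Csf1r, Cx3cr1, Adgre1, Adgre4 and Treml4), as Ear2 was. These and the markers below were named after their values were seen. How many of all tested genes had their extremes in these libraries was not counted, and TBI+DEIX replicate 1 stood apart from the rest. The summed FPKM of 7 erythroid markers was also lowest in TBI+DEIX replicate 1, at 160. In DEIX replicate 2 that sum was 7953, against 1540 and 1294 in DEIX replicates 1 and 3. Treml4, a receptor gene of monocytes and dendritic cells that is among the genes most like Ear2, was at 7.65 FPKM in TBI+DEIX replicate 1 and 29.2 in DEIX replicate 2, its lowest and highest values. Other markers went the opposite way in DEIX replicate 2, where C1qa (9.23 FPKM), C1qb (10.6) and Vcam1 (14.5) were at their lowest of the 12 libraries. The summed FPKM of the 12 markers was 1975 to 2029 in control, 1313 to 2076 in TBI, 827 to 2675 with TBI+DEIX and 2141 to 2526 in DEIX, with no marker listed at 0 in any library. Ly6c2, with a mean of 1460 FPKM over the 12 libraries, made up most of this sum. The part of monocytes and macrophages in the Ear2 values was not tested.

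**Figure D4:**
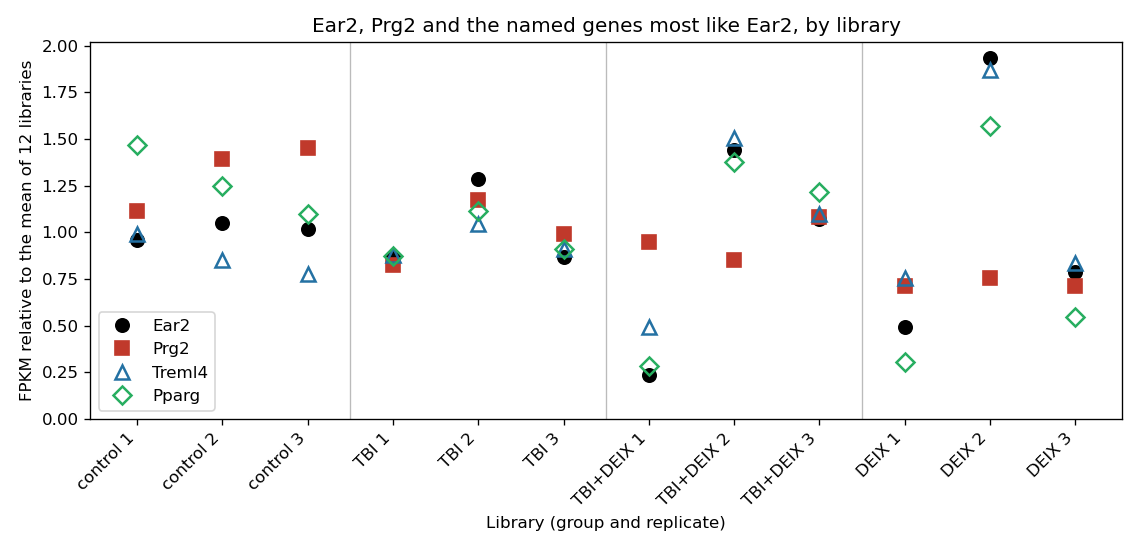
FPKM of Ear2, Prg2, Treml4 and Pparg (vertical axis), each divided by its mean over the 12 libraries, in each library (horizontal axis, group and replicate number). Treml4 and Pparg were picked as genes most like Ear2 over these same 12 libraries, so their shared course follows from the choice. Ear2 has its lowest point in TBI+DEIX replicate 1 (23.1 FPKM) and its highest in DEIX replicate 2 (192 FPKM), where Prg2 is at 51.4 and 40.7 FPKM.

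Ear1 (ENSMUSG00000072601.4, chromosome 14, 43818765 to 43875517, minus strand) was at 1.99, 3.04 and 2.24 FPKM in control, 1.46, 3.06 and 1.65 in TBI, 0.519, 2.15 and 1.67 with TBI+DEIX, and 0.776, 1.26 and 0.862 in DEIX. The DEIX libraries lay below control without overlap. The change of -0.80 in DEIX against control was not called with all groups in the fit (SE 0.27, limma adjusted p 0.0948), and was called with only these groups (0.00971) and with the replicate number as a block (0.0289), as well as with array weights (from 0.00195 to 0.293 over the alternatives). The block also called Ear1 in TBI+DEIX against control, where the change was -0.54 (adjusted p 0.0402, and 0.153 without it). That change was -0.23 when TBI+DEIX replicate 1 was left out and -0.75 when replicate 2 was. Ear6 (ENSMUSG00000062148.6, chromosome 14, 51853699 to 51854643, plus strand) ran from 0.848 FPKM in TBI replicate 3 to 2.87 in control replicate 2, with group means between 1.41 ± 0.274 in TBI+DEIX and 2.10 ± 0.667 in control (SD, n = 3). At the reported settings its largest change against control was -0.35, in TBI+DEIX, with an adjusted p of 0.285. With array weights this change was -0.65 and was called (adjusted p 0.0292, up to 0.651 over the alternatives). As a percent of Ear2 in the same library, Ear1 was 0.656 to 2.91.

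The interleukin 5 receptor gene was highest in control. Il5ra (ENSMUSG00000005364.11, chromosome 6, 106710357 to 106749037, minus strand) encodes the specific alpha chain through which interleukin 5 drives eosinophil growth and survival. It was at 0.848, 0.463 and 0.604 FPKM in control, 0.0565, 0.187 and 0.212 in TBI, 0.192, 0.267 and 0.162 with TBI+DEIX, and 0.218, 0.415 and 0.317 in DEIX. Every control library lay above all 9 others. Means were 0.638 ± 0.195, 0.152 ± 0.0833, 0.207 ± 0.0539 and 0.317 ± 0.0981 FPKM (SD, n = 3), so TBI held 23.8% of the control mean. In the fit without a filter on low values, over 17304 genes, the log2 change was -0.50 in TBI (SE 0.09, limma adjusted p 0.0141, with 3.9% of those genes called) and -0.44 in TBI+DEIX (adjusted p 0.00803, with 21% called), each against control. In DEIX it was -0.31 and was not called (adjusted p 0.0818). A pseudocount of 1 on values under 1 makes these changes far smaller than the ratios of the means. The summed FPKM of 8 B lineage markers was 347 to 429 in control, 22.2 to 263 in TBI, 5.58 to 137 with TBI+DEIX and 57.1 to 88.4 in DEIX. The members did not all follow the sum. Vpreb1, a pre-B cell gene named after its values were seen, averaged 35.6 ± 3.18 FPKM in control and 54.5 ± 43.5 in TBI (SD, n = 3). The part of B lineage cells in the Il5ra values was not tested.

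Ccr3 (ENSMUSG00000035448.9, chromosome 9, 124021972 to 124031689, plus strand), the eotaxin receptor, was at 4.61, 4.71 and 3.11 FPKM in control, 3.75, 2.77 and 1.94 in TBI, 2.35, 6.49 and 3.04 with TBI+DEIX, and 1.02, 1.79 and 2.24 in DEIX. The DEIX libraries lay below control and below TBI+DEIX without overlap, and overlapped with TBI. DEIX held 40.5% of the control mean, a log2 change of -0.95 that was not called with all groups in the fit (SE 0.30, limma adjusted p 0.0767). With only these groups it was called (0.0158), as it was with array weights (from 0.00278 to 0.256 over the alternatives). In TBI against control the change of -0.44 was not called (adjusted p 0.473) except with array weights (-0.59, adjusted p 0.0144). Those weights also called Ccr3 higher in TBI+DEIX than in DEIX (1.11, adjusted p 0.0323, and 0.83 with 0.193 without weights) and called its interaction (1.70, adjusted p 0.00951, and 1.27 with 0.423 without weights). TBI+DEIX replicate 2 held the highest value of the 12.

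Siglecf (ENSMUSG00000039013.16, chromosome 7, 43351341 to 43359531, plus strand), a sialic acid binding lectin that can trigger eosinophil death, was the steadiest member. Its coefficient of variation over the 12 libraries was 14.8%, against 25.0% for Prg2 and 30.1% to 67.5% for the other 8. It was at 4.50, 5.47 and 5.05 FPKM in control, 4.46, 4.37 and 4.25 in TBI, 3.02, 5.11 and 4.98 with TBI+DEIX, and 5.72, 4.75 and 5.06 in DEIX. The TBI libraries lay below control, by little. No change was called without weights, and the 95% confidence interval was -0.50 to 0.17 in TBI against control and -0.30 to 0.38 in DEIX against control on the log2 scale. With array weights the change in TBI was called, at -0.24 (adjusted p 0.0162, up to 0.855 over the alternatives).

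Alox15 (ENSMUSG00000018924.6, chromosome 11, 70344152 to 70352031, minus strand) encodes 12/15-lipoxygenase, which oxidises arachidonic acid. It was at 2.98, 2.50 and 2.63 FPKM in control, 0.856, 1.75 and 2.05 in TBI, 1.73, 1.88 and 2.23 with TBI+DEIX, and 1.78, 3.33 and 2.34 in DEIX. All 6 irradiated libraries lay below the 3 control libraries, and DEIX overlapped with every group. The TBI mean was 57.4% of control, a log2 change of -0.57 that was not called (SE 0.20, limma adjusted p 0.157). Array weights called it at -0.40 (adjusted p 0.00871, up to 0.407 over the alternatives).

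Genes that act above these members were taken from a list of 30 for eosinophil development and signalling, of which 22 were tested. In TBI against control 0 of the 22 were called by limma (3.99% of all tested genes), and 3 had an unadjusted p under 0.05 (18.1%). DEIX against control had 4 called higher and 0 lower. The counts were 5 and 1 for TBI+DEIX against TBI and 8 and 1 for TBI+DEIX against control. Of all tested genes 4.52%, 4.69% and 16.9% were called higher in these 3 comparisons, and 2.72%, 3.41% and 13.1% lower. Among the 8 called higher in TBI+DEIX against control, Cebpb lost its call with summed FPKM made equal (limma adjusted p 0.145). It also lost it without any 1 of the control libraries or TBI+DEIX replicate 1. Csf2ra lost its call there without control replicate 2 (0.0505). TBI+DEIX against DEIX had 0 called higher and 2 lower, Cebpa (-0.84) and Irf8 (-1.62), where 2.57% of all tested genes were called. Both lost the call with only these groups in the fit (adjusted p 0.291 and 0.159). Cebpa also lost it without the filter, with summed FPKM made equal, with the replicate block, and without TBI+DEIX replicate 2 or 3 or any 1 of the DEIX libraries. The called rises included Csf2rb, the beta chain that IL-5RA shares with the receptors of interleukin 3 and GM-CSF. It averaged 64.8 ± 5.27 FPKM for control, 86.2 ± 24.3 for TBI, 196 ± 38.8 for TBI+DEIX and 139 ± 31.4 for DEIX (SD, n = 3). Its log2 change was 1.07 in DEIX against control (limma adjusted p 0.019) and 1.19 in TBI+DEIX against TBI (adjusted p 0.0177). Csf2rb2, a near copy that serves the interleukin 3 receptor in mice, changed by 1.21 and 1.27 in the same comparisons (adjusted p 0.0196 and 0.0199), and how reads were shared between the copies is not known. Pirb (1.19 and 1.10) and Cd300lf (0.99 and 1.23) also rose in both comparisons. Like the beta chains, they are used by other myeloid cells. Of 9 maturing neutrophil markers, 0 were called by limma in DEIX against control, with 2 at an unadjusted p under 0.05 (24.7% of all tested genes) and 5 with all DEIX libraries above control (23.4%). For TBI+DEIX against TBI 0 were called by limma, with 2 at an unadjusted p under 0.05 (27.2%). The 3 markers Ltf, Mmp9 and Cxcr2 were called higher in TBI+DEIX against control (16.9%). Of 7 erythroid markers, 3 were called lower in TBI+DEIX against TBI (3.41% of all tested genes) and 0 were called by limma in DEIX against control (7.24%). Their summed FPKM was 1678.5 to 8010 in TBI and 160 to 1496 with TBI+DEIX. The part of neutrophil and erythroid cells in the rises of Csf2rb, Csf2rb2, Pirb and Cd300lf was not tested.

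Of the transcription factors, Irf8, which directs monocyte and dendritic cell fate, fell by 1.03 in TBI+DEIX against TBI (limma adjusted p 0.024; by 0.59 with array weights), and Spi1, which encodes PU.1, rose by 0.68 (adjusted p 0.0386). Each gene called in TBI+DEIX against TBI lost its call with only those 6 libraries in the fit, where the adjusted p was 0.144 for Csf2rb, Csf2rb2, Pirb and Cd300lf, 0.155 for Irf8 and 0.166 for Spi1. Without TBI replicate 3 all 6 genes lost it as well, and Csf2rb then had an adjusted p of 0.095. In DEIX against control Csf2rb and Csf2rb2 lost their call without any 1 of the libraries but DEIX replicate 2. Gata1, which eosinophils share with the erythroid and megakaryocyte lineages and which was named after its values were seen, averaged 26.3 ± 1.62 FPKM for control, 36.6 ± 12.9 for TBI, 16.6 ± 4.65 for TBI+DEIX and 17.6 ± 11.7 for DEIX (SD, n = 3) and was not called in any contrast.

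Of 4 other eosinophil-associated ribonucleases in the table, none passed the filter on low values. Ear14 was listed at 0 in all 12 libraries and Ear10 in 11 of them. Rnase2a, also known as Ear11, was at 0.371 to 0.563 FPKM in control, 0.0952 to 0.212 in TBI, 0 to 0.333 with TBI+DEIX and 0.788 to 1.99 in DEIX, so that the DEIX libraries lay above all 9 others. Its DEIX mean of 1.25 ± 0.644 FPKM (SD, n = 3) was above that of Ear1. Rnase2b was at 0.479 to 0.662 FPKM in 11 libraries and at 0 in TBI+DEIX replicate 1.

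The members did not share 1 pattern over the libraries. Pearson's r of log2(FPKM + 1) over the 12 libraries, which come from 4 groups and are given as a description, was 0.93 for Prg2 with Prg3, 0.75 for Prg3 with Ear1 and 0.72 for Prg2 with Ear1. It was 0.67 for Ear1 with Ear2, which share sequence. It was 0.59 for Prg2 with Epx, 0.14 for Prg2 with Ear2 and -0.59 for Epx with Siglecf.

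By the same measure, the named genes outside the list most like Ear2 were Pparg (0.89), Treml4 (0.89), Pin4 (0.89), Skint3 (0.89) and Clk1 (0.88). Pparg, a nuclear receptor of macrophages and fat cells, was at 0.612 FPKM in TBI+DEIX replicate 1 and 3.38 in DEIX replicate 2. Most like Prg2 were Lrmp (0.92), Zcchc9 (0.91), Lgals9 (0.86), Dgcr6 (0.85) and Rsph9 (0.85). Lgals9, a galectin, had group means of 126, 94.6, 103 and 77.8 FPKM for control, TBI, TBI+DEIX and DEIX, highest in control and lowest in DEIX as for Prg2. Most like Siglecf were Cyb561d2 (0.93), Ang (0.93), Cst3 (0.93), Rgs2 (0.92) and Camk1 (0.91), each lowest in TBI+DEIX replicate 1. Most like the mean centred profile of the 9 tested members were Tnnc1 (0.89), Nat2 (0.88), Pam16 (0.87), Eef1akmt2 (0.87) and Arl4d (0.87).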

How the data were processed

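RNA of whole bone marrow was profiled in 4 groups of 3 libraries, from strand-marking libraries, per the labels' protocols. The deposited FPKM values were computed by the authors. The submitters' processing notes name STAR 2.6, Cufflinks 2.2.1 and the build mm10, without their settings. Count models do not suit FPKM and were left out. Of 21853 identifiers, 21853 matched GENCODE vM21 (GRCm38), which gave symbols and coordinates.

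Values were tested as log2(FPKM + 1), which understates changes of low genes. Genes with FPKM of at least 1 in at least 3 libraries entered limma 3.58.1 (R 4.3.3, eBayes with trend) as 1 model of 4 group means over 12 libraries, with 8 residual degrees of freedom, and adjusted by Benjamini-Hochberg over all 10994 genes. The shared spread is a simplification: the root mean square SD within groups was 0.140 for control, 0.225 for TBI, 0.418 for TBI+DEIX and 0.236 for DEIX. On data simulated for TBI against control with 10994 genes, the fit called 81% of genes changed by 1 and 96% of those changed by 2 on the log2 scale. The simulation gave each gene the same spread in all 4 groups, which these data do not have, so the shares may differ here.

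The worth of 1 read came from the most common ratio of low values between libraries. For TBI+DEIX replicate 1 only 14 genes stood at the chosen ratio, so its value is rough.

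Of the lists, all members, the called genes and the 3 with the highest mean could be named, and for likeness the 5 genes with the highest r to the 3 most expressed members and to their mean profile. The members and lists were chosen with earlier results of these data known. TBI+DEIX against DEIX was added after the data were seen. Alternatives were a pseudocount of 0.1, no filter, equal summed FPKM, compared groups only, a replicate block, array weights (by the gene by gene method, since the default did not converge) and leaving out each library.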

Additional observations from a re-analysis of the deposited data

Results flagged for a closer look

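Prg3 lay apart in opposite directions between the 2 irradiation comparisons. Every TBI library (1.34 to 2.20 FPKM) was below every control library (2.95 to 3.99), while every TBI+DEIX library (1.42 to 1.75) was above every DEIX library (0.935 to 1.22). TBI+DEIX against DEIX was not called for Prg3 (log2 change 0.32, limma adjusted p 0.286). The pattern was searched for among the 10 members only, so its share over all tested genes is not known. The difference between the 2 irradiation effects was 0.96 on the log2 scale (SE 0.20). It had an unadjusted p of 0.0005 and did not pass over all genes (limma interaction, adjusted p 0.115). Without TBI+DEIX replicate 1 it was called (1.02, adjusted p 0.0215), as it was with array weights, and over the alternatives its adjusted p ran from 0.00676 to 0.322.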

How the results depend on the processing

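Of 945 single-gene values under the alternatives, 820 kept their direction and their side of the threshold, 66 lost a call, 18 gained one and 41 changed sign, and the causes were not tested. The 41 concerned changes that were not called as reported, 15 of them of Ear2. Counts below give all genes and, after it, eosinophil genes called. With array weights they were 4218 and 6 in TBI against control, 4508 and 5 in DEIX against control, 4488 and 0 in TBI+DEIX against TBI, 6187 and 3 in TBI+DEIX against control, 948 and 2 in TBI+DEIX against DEIX, and 532 and 2 for the interaction. With only the compared groups in the fit they were 1417 and 1, 2057 and 5, 0 and 0, 2181 and 1, and 0 and 0 in the first 5 of these (2015 and 1035 genes had an unadjusted p under 0.05 where limma called 0). Without the filter they were 675 and 2 in TBI against control and 37 for the interaction, which had 11 with a pseudocount of 0.1. With summed FPKM made equal they were 0 eosinophil genes in TBI against control and in TBI+DEIX against DEIX, 455 genes in DEIX against control and 474 in TBI+DEIX against TBI. That scaling moved the share of called genes that were higher from 57.9% to 30.2% in TBI+DEIX against TBI, from 62.4% to 45.5% in DEIX against control, from 56.2% to 38.3% in TBI+DEIX against control, from 31.4% to 15.8% in TBI+DEIX against DEIX and from 95.5% to 74.2% for the interaction.

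The replicate numbers did not pair the libraries: of 18 same-numbered pairs 3 had a correlation of deviations over 0.1 (from -0.447 to 0.242), against 15 of 36 other pairs. The replicate block gave 474 genes in TBI+DEIX against TBI and 180 in TBI+DEIX against DEIX, and called Ear1 in DEIX against control (adjusted p 0.0289) and in TBI+DEIX against control (0.0402).

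Leaving out 1 library at a time called 153 to 259 genes in TBI against control, 146 to 938 in DEIX against control, 5 to 2836 in TBI+DEIX against TBI, 2004 to 4232 in TBI+DEIX against control, 50 to 927 in TBI+DEIX against DEIX and 4 to 331 for the interaction, with 0 to 1, 1 to 2, 0 to 0, 1 to 2, 0 to 1 and 0 to 1 eosinophil genes. Log2 changes that then crossed 0 were, for Ear2, -0.21 to 0.066 in TBI against control, -0.68 to 0.29 in DEIX against control, -0.96 to 0.33 in TBI+DEIX against TBI, -0.99 to 0.30 in TBI+DEIX against control, -0.85 to 0.44 in TBI+DEIX against DEIX and -0.82 to 0.47 for the interaction. In TBI+DEIX against TBI they were -0.028 to 0.55 for Ccr3, -0.22 to 0.23 for Ear6, -0.091 to 0.39 for Epx, -0.17 to 0.080 for Prg2 and -0.13 to 0.17 for Siglecf. In DEIX against control they were -0.28 to 0.041 for Alox15, -0.30 to 0.028 for Ear6 and -0.023 to 0.095 for Siglecf. In TBI+DEIX against control they were -0.47 to 0.11 for Ccr3 and -0.29 to 0.013 for Siglecf, and for the interaction -0.074 to 0.37 for Ear6 and -0.17 to 0.13 for Siglecf. Array weights turned Ear2 to 0.16, 0.069, 0.23, 0.62 and 0.46 in TBI against control, TBI+DEIX against TBI, TBI+DEIX against control, TBI+DEIX against DEIX and the interaction, and Siglecf to -0.022 in DEIX against control, 0.16 in TBI+DEIX against TBI and 0.18 for the interaction. They turned Epx to -0.34 in TBI+DEIX against TBI, Ccr3 to 0.036 in TBI+DEIX against control and Ear6 to -0.058 for the interaction, and a pseudocount of 0.1 turned Ear6 to 0.0068 in TBI+DEIX against TBI. Depth limits Il5ra and Ear1 most, with about 9 reads in their lowest libraries, and then Prg3 with about 26 and Ear6 with about 32. Total reads are unknown. An exact permutation test of 3 against 3 libraries cannot go below 0.1.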
